A study of Mus musculus with 11 samples.

Results

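The facial processes of mouse embryos that lack *Wnt9b* were compared directly with those of embryos that lack *Rspo2*, without the wild-type libraries. The comparison rests on 6 of the 11 RNA sequencing libraries of the series, 3 from homozygous *Wnt9b* mutants (Wnt9bKO) and 3 from homozygous *Rspo2* mutants (Rspo2KO). All 6 came from total RNA of facial process explants, that is, the mandibular and maxillary parts of the first branchial arch and the nasal processes, taken at E10.5 from mice of a mixed strain. The labels do not say which of the *Rspo2* null alleles kept by the laboratory was used, nor whether a sample is 1 embryo or a pool, so p-values measure the spread between these samples. The labels name a single mutated gene for each group and do not give the genotype at the other locus. Each group serves as the reference for the other, and a difference cannot be assigned to either mutant. The description covers autosomal protein-coding genes, of which 13595 of the 20126 in the files (67.5%) passed the filter on low counts.

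WNT ligands bind Frizzled receptors together with LRP5 or LRP6 and stabilise β-catenin, which then activates target genes with TCF and LEF factors. The ubiquitin ligases ZNRF3 and RNF43 clear Frizzled and LRP proteins from the cell surface. R-spondins such as RSPO2 bind LGR receptors and these ligases, keep the receptors at the surface and so strengthen a WNT signal that is already present. In the early face *Wnt9b* is known from the ectoderm and *Rspo2* from the underlying neural crest mesenchyme, and mice that lack either gene have facial defects.

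Total counts were 13220768, 17455921 and 15802301 in Rspo2KO 1, 2 and 3 and 17156003, 16815155 and 16948615 in Wnt9bKO 1, 2 and 3. Levels are given in CPM, counts scaled to a common library total after TMM normalisation. Correlations of log2 CPM were between 0.9797 and 0.9935 for library pairs of the same genotype and between 0.9654 and 0.9802 for pairs of different genotypes. *Xist*, the RNA that marks the inactive X chromosome of female cells, was below 2 CPM in all 6 libraries, and Y-linked protein-coding genes summed to between 265.7 and 323.1 CPM. Small nuclear RNAs summed to between 387.3 and 420.3 CPM in Rspo2KO and between 75.3 and 80.9 CPM in Wnt9bKO, and histone genes to between 14681 and 19492 CPM and between 8200 and 10314 CPM. Most transcripts of these classes lack a poly(A) tail. Their part in the differences below was not tested.

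Each mutated gene serves as a check of the labels. In the GRCm38 build, *Rspo2* (ENSMUSG00000051920) occupies bases 43020794 to 43170826 of chromosome 15. Its level was 6.62, 4.80 and 4.75 CPM in Rspo2KO 1, 2 and 3 and 23.0, 2.87 and 18.2 CPM in Wnt9bKO 1, 2 and 3. The groups overlap, because the library labelled Wnt9bKO 2 had less *Rspo2* than any library labelled Rspo2KO. The log2 fold change of Wnt9bKO over Rspo2KO was 1.46 (SE 0.515, 95% interval 0.33 to 2.58, adjusted p = 0.0647, edgeR quasi-likelihood test). Without Wnt9bKO 2 it was 1.93, given without a test because that library was singled out by its *Rspo2* level. The library labelled Wnt9bKO 2 goes against its label in this gene, and calls that were lost without it are named below.

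*Wnt9b* (ENSMUSG00000018486) occupies bases 103727364 to 103749821 of chromosome 11. It was measured at 14.5, 16.7 and 12.9 CPM in Rspo2KO and at 23.5, 16.4 and 16.3 CPM in Wnt9bKO. Its transcript was therefore not lower in the libraries labelled Wnt9bKO (log2 fold change 0.35, SE 0.17, 95% interval -0.03 to 0.73, adjusted p = 0.178). Counts per gene include reads from any exon that a mutation leaves in place, so they do not test whether functional RNA was made. Within 5 Mb of *Wnt9b*, 9 of 159 genes tested were higher and 11 lower in Wnt9bKO (12.6%, against 12.5% of all genes tested). Within 5 Mb of *Rspo2*, 2 of 22 were higher and 2 lower (18.2%), too few genes to read this share as a difference.

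A gene was called where the adjusted p was below 0.05 and the change exceeded 1.5-fold. By this rule 714 genes (5.25%) were higher and 992 (7.3%) were lower in Wnt9bKO than in Rspo2KO, together 1706 genes (12.5%) of the 13595. Of these, 154 were higher and 341 lower by more than 2-fold, and 15 and 44 by more than 4-fold. The median log2 fold change over all genes tested was -0.01, and the interquartile range was -0.28 to 0.25. In 5355 genes (39.4%) the 3 libraries of one genotype all lay above the 3 of the other, and 1680 of the 1706 called genes were among them. When 1 library at a time was left out, the count ranged from 393 (without Rspo2KO 3) to 1066 (without Rspo2KO 1) genes higher and from 573 to 1150 lower, with the same libraries left out. Without Rspo2KO 2 it was 405 and 665. Without Wnt9bKO 2 it was 683 and 911, and 1365 of the 1706 genes were called again. Tested against a change of 1.5-fold itself, 68 genes were higher and 195 lower.

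**Figure D1:**
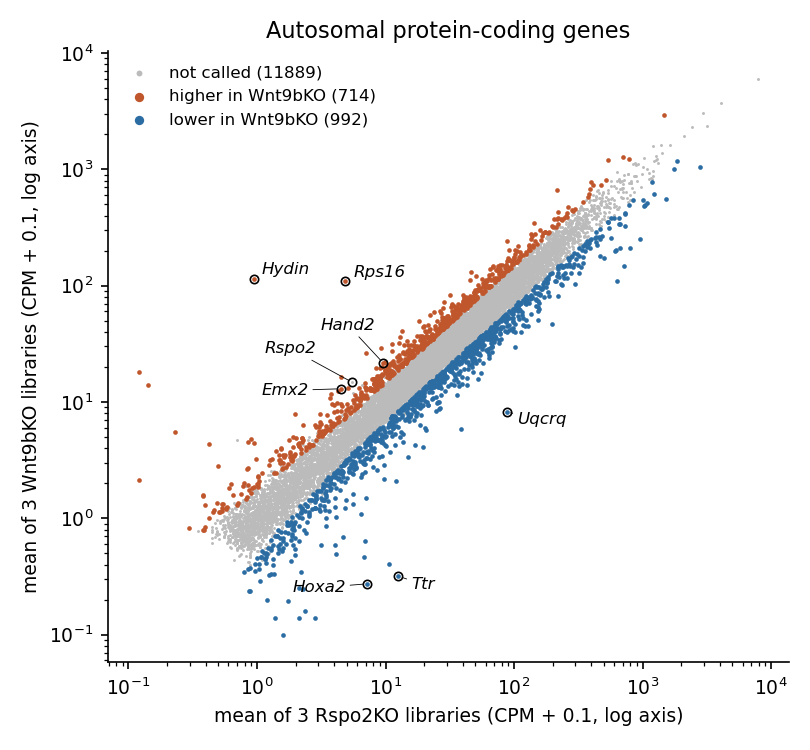
Mean level of each autosomal protein-coding gene in the 3 Rspo2KO libraries (horizontal axis) and the 3 Wnt9bKO libraries (vertical axis), in CPM plus 0.1 on log axes. Orange and blue points are the 714 genes called higher and the 992 called lower in Wnt9bKO, grey points were not called, and circled points are genes named in the text.

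In the WNT pathway lists the share of called genes ranged from 5.26% to 17.6%, on both sides of the share of all genes. Of 17 WNT ligand genes tested, 1 was higher and 2 were lower (17.6% called, against 12.5% of all genes). *Wnt3a*, a ligand of the dorsal neural tube, was at 1.96, 1.46 and 1.77 CPM in Rspo2KO and at 0.643, 0.539 and 0.482 CPM in Wnt9bKO. It is among the 2 ligand genes counted as lower. It passed the filter on low counts through Rspo2KO alone, so its values are given without a test. *Wnt9a*, the closest relative of *Wnt9b*, was at 4.06, 4.62 and 3.17 CPM in Rspo2KO and 1.77, 2.46 and 2.23 CPM in Wnt9bKO (log2 fold change -0.88, SE 0.24, adjusted p = 0.0227). *Wnt9a* was lower in every Wnt9bKO library, but its call was lost without Rspo2KO 2 or without Wnt9bKO 3. *Wnt8b*, a ligand of the developing forebrain, was at 0.697, 8.09 and 4.34 CPM in Wnt9bKO against 0.697 to 1.05 CPM in Rspo2KO. Its groups overlap, and its call (log2 fold change 2.36, adjusted p = 0.0261) was lost without any 1 of 5 of the 6 libraries. *Wnt3*, the neighbour of *Wnt9b* on chromosome 11, was at 7.08, 2.93 and 4.9998 CPM in Wnt9bKO and 6.24, 6.57 and 4.37 CPM in Rspo2KO (log2 fold change -0.19, 95% interval -0.82 to 0.44).

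Among R-spondins, LGR receptors and their ligases, 1 of 8 genes tested was called (12.5%, against 12.5% of all genes). That gene was *Lgr6*, whose values are given without a test, so nothing is read from the share. *Lgr6*, which encodes an R-spondin receptor, was at 1.23, 0.659 and 1.205 CPM in Wnt9bKO and at 0.376, 0.304 and 0.3803 CPM in Rspo2KO. It passed the filter on low counts through Wnt9bKO alone, so its values are given without a test. Its call was also lost without Rspo2KO 2, Rspo2KO 3 or Wnt9bKO 3 and with DESeq2. *Lgr4* was at 90.6, 103 and 86.1 CPM in Wnt9bKO and 105, 109 and 112 CPM in Rspo2KO (log2 fold change -0.22, 95% interval -0.46 to 0.02). *Lgr5* ranged from 4.73 to 11.8 CPM in Wnt9bKO, which spans the 7.60 to 8.94 CPM of Rspo2KO (log2 fold change -0.05, 95% interval -0.63 to 0.53). The ligase genes went in opposite directions, neither of them called, with log2 fold changes of -0.29 for *Znrf3* (95% interval -0.56 to -0.02, adjusted p = 0.122) and 0.45 for *Rnf43* (95% interval -0.07 to 0.98, adjusted p = 0.206).

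Receptors differed by small amounts. Of 18 Frizzled and LRP genes, 2 were higher and 1 lower (16.7% called, against 12.5% of all genes). *Fzd2* was at 205, 177 and 171 CPM in Wnt9bKO and 125, 121 and 107 CPM in Rspo2KO (log2 fold change 0.65, SE 0.12, adjusted p = 0.0030), a call lost without Wnt9bKO 1, and *Fzd6* had a log2 fold change of 0.72 (SE 0.16, adjusted p = 0.00793). *Fzd10*, a receptor of the dorsal neural tube, was at 22.6, 15.2 and 18.0 CPM in Wnt9bKO and 29.2, 29.7 and 35.0 CPM in Rspo2KO (log2 fold change -0.75, adjusted p = 0.0067). No library of either genotype crossed into the range of the other for these 3 genes, and the *Fzd10* call was lost without Rspo2KO 3. The co-receptor *Lrp6* passed the adjusted threshold without reaching 1.5-fold (log2 fold change 0.49, SE 0.13, adjusted p = 0.0196), while for *Lrp5* the value was 0.13 (95% interval -0.23 to 0.49).

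Inside the cell, 3 of 34 signal transducer genes were higher and none was lower (8.82% called, against 12.5% of all genes). They were *Gsk3b*, a kinase that marks β-catenin for destruction (0.77, adjusted p = 0.00779), *Tcf7l1*, a TCF factor that mostly represses (0.73, adjusted p = 0.0298), and *Ctnnbip1*, which blocks the binding of β-catenin to TCF (0.61, adjusted p = 0.00527). All 3 calls depended on the libraries used. Those of *Gsk3b* and *Tcf7l1* were lost without Rspo2KO 2 or 3, that of *Tcf7l1* also without Wnt9bKO 3, and that of *Ctnnbip1* without Rspo2KO 1 or Wnt9bKO 1. *Ctnnb1*, which encodes β-catenin, was at 1279 to 1546 CPM in Rspo2KO and 1342 to 1471 CPM in Wnt9bKO (log2 fold change -0.03, 95% interval -0.30 to 0.24). *Iqgap1*, a scaffold protein gene linked to R-spondin signalling, had a log2 fold change of 0.19 (95% interval -0.04 to 0.41).

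Of 19 WNT target and feedback genes 1 was called (5.26%, against 12.5% of all genes). *Axin2*, the most widely used readout of β-catenin signalling, was at 75.6, 43.0 and 54.0 CPM in Wnt9bKO and at 54.0, 41.0 and 39.1 CPM in Rspo2KO. The groups overlap and the interval of the log2 fold change, -0.05 to 0.79, leaves room for a rise above 1.5-fold as well as for none (adjusted p = 0.2). The called target was *Fgf8*, the growth factor of the facial ectoderm, at 7.83, 9.76 and 11.7 CPM in Wnt9bKO and 5.64, 6.20 and 4.88 CPM in Rspo2KO (log2 fold change 0.81, SE 0.20, adjusted p = 0.0139). Every Wnt9bKO library was above every Rspo2KO library, but without Rspo2KO 3 or Wnt9bKO 3 the call was lost. Over the list the median log2 fold change was 0.30, against -0.01 over all genes, and without Wnt9bKO 2 the count of called targets was 5.

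Among secreted WNT antagonists, 1 of 11 genes was called (9.09%, against 12.5% of all genes). This was *Draxin*, an axon guidance and WNT antagonist gene of the neural tube (log2 fold change -1.18, SE 0.15, adjusted p = 0.000416). It stood at 7.18, 7.97 and 7.47 CPM in Wnt9bKO and 19.1, 14.8 and 17.4 CPM in Rspo2KO. Of 14 planar cell polarity genes 1 was called (7.14%), *Vangl2*, which encodes a membrane protein at the core of that pathway (log2 fold change 0.79, SE 0.15, adjusted p = 0.00453).

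Some genes that pattern the jaw were higher in Wnt9bKO. In the endothelin, DLX and HAND list, which holds genes of both the upper and the lower jaw, 5 of 19 genes were higher in Wnt9bKO and none lower (26.3% called, against 12.5% of all genes), and 14 did not pass. All 19 had a log2 fold change above 0, with a median of 0.35. *Hand2*, a transcription factor gene of the distal mandibular arch, was at 30.9, 14.1 and 19.5 CPM in Wnt9bKO and 9.33, 10.04 and 9.13 CPM in Rspo2KO (log2 fold change 1.18, SE 0.24, adjusted p = 0.0057). Its groups do not overlap, and its call was kept whichever library was left out. *Hand1* was at 4.13, 2.22 and 3.79 CPM against 1.505, 1.95 and 1.01 CPM (log2 fold change 1.18, SE 0.31, adjusted p = 0.0211), and lost its call without Rspo2KO 3 or Wnt9bKO 3. *Dlx5*, chosen after its values were seen, encodes a factor that specifies lower jaw identity and was at 7.18, 5.03 and 7.83 CPM in Wnt9bKO and 4.89, 2.74 and 1.39 CPM in Rspo2KO (log2 fold change 1.17, adjusted p = 0.0332). The *Dlx5* call was lost without Rspo2KO 2, Rspo2KO 3 or Wnt9bKO 3. The endothelin receptor gene *Ednra* (0.62, adjusted p = 0.00957) and the nuclear receptor gene *Nr2f2* (0.69, adjusted p = 0.0218) were the others. The *Ednra* call was lost without Rspo2KO 2 or Wnt9bKO 1 and with the offset for GC content and length, and that of *Nr2f2* without Rspo2KO 2, Rspo2KO 3 or Wnt9bKO 3. The ligand gene *Edn1* was at 1.29, 2.10 and 1.33 CPM in Wnt9bKO and 1.204, 1.03 and 0.824 CPM in Rspo2KO (log2 fold change 0.62, 95% interval -0.06 to 1.30). The count of 5 became 7 without Wnt9bKO 2 and 2 without Rspo2KO 2, Rspo2KO 3 or Wnt9bKO 3.

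**Figure D2:**
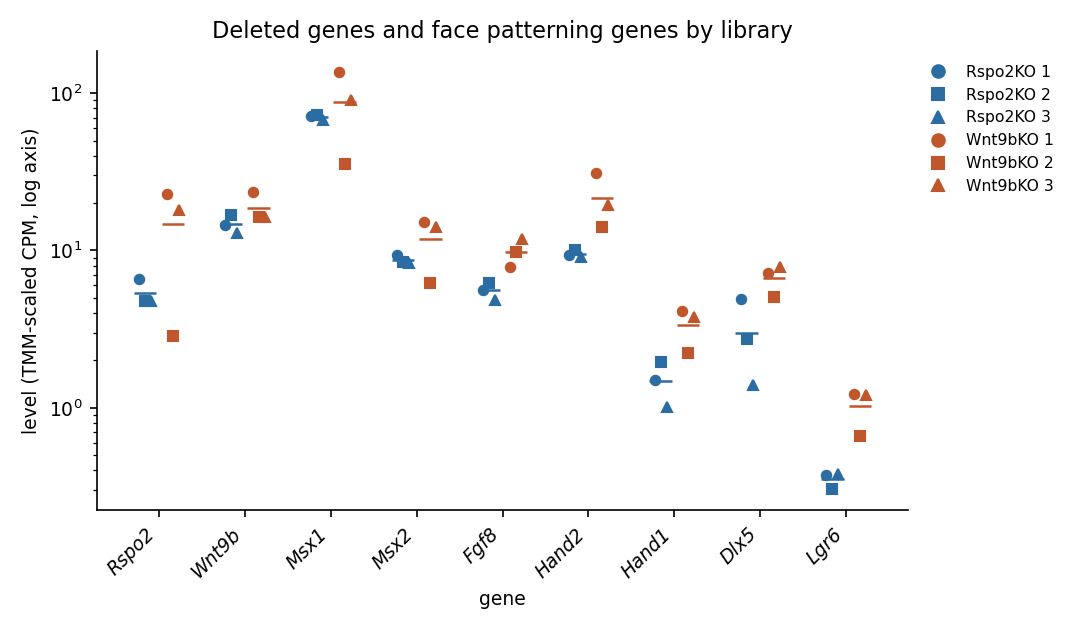
Level of *Rspo2*, *Wnt9b* and 7 other genes of the WNT pathway or the face in each library, in TMM-scaled CPM on a log axis, with Rspo2KO in blue, Wnt9bKO in orange and a bar at each group's mean. Wnt9bKO 2 (orange square) is the lowest of the 6 libraries for *Rspo2*, *Msx1* and *Msx2*, while the groups are separate for *Fgf8*, *Hand2*, *Hand1*, *Dlx5* and *Lgr6*. The last of these passed the filter on low counts through Wnt9bKO alone.

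*Msx1* and *Msx2*, which mark the distal mesenchyme of the arches, were split by library Wnt9bKO 2. *Msx1* was at 137, 35.3 and 91.0 CPM in Wnt9bKO 1, 2 and 3 and at 71.8, 72.2 and 67.9 CPM in Rspo2KO. With all 6 libraries its log2 fold change was 0.32 (95% interval -0.41 to 1.04, adjusted p = 0.537), and without Wnt9bKO 2 it was 0.68. *Msx2* behaved alike, at 15.2, 6.23 and 14.04 CPM against 9.33, 8.45 and 8.30 CPM. Its log2 fold change of 0.45 became 0.74 without Wnt9bKO 2. The values without Wnt9bKO 2 are given without a test, because it was the lowest library for both genes. *Barx1*, a mesenchyme gene chosen after its values were seen, also had its lowest value of the 6 libraries in Wnt9bKO 2 (54.0, 18.6 and 34.8 CPM in Wnt9bKO against 30.6 to 33.8 CPM in Rspo2KO). *Bmp4* and *Fgf10*, growth factor genes of the facial primordia, were not called, with log2 fold changes of 0.30 (95% interval -0.17 to 0.77) and 0.28 (95% interval -0.18 to 0.74).

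Other lists of face development had shares of called genes near or below that of all genes, 12.5%. Of 28 upper face, palate and tooth field factors, 3 were higher and none lower (10.7%), with a median log2 fold change of 0.36. *Tfap2c* (0.79, adjusted p = 0.00518) and *Grhl3* (1.24, adjusted p = 0.00635), both transcription factor genes of surface ectoderm, were among them, and both calls were kept whichever library was left out. Of 22 mesenchyme transcription factor genes 3 were higher and none lower (13.6%, median 0.30). *Foxp1* (0.88, adjusted p = 0.00165) and *Foxd1* (0.67, adjusted p = 0.00212) kept their call in every fit without 1 library, and *Sox6* (0.69, adjusted p = 0.0158) lost it in 4 of them, among them the fit without Wnt9bKO 2. For Hedgehog signalling the count was 1 of 16 genes (6.25%), *Kif7*, a regulator of GLI factors at the cilium (0.68, adjusted p = 0.00539), whose call was lost without Wnt9bKO 1. The count of called genes was 8 without Rspo2KO 1.

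In the BMP and TGF-β list, 4 of 27 genes were higher and none lower (14.8%, against 12.5% of all genes). *Smad7*, an inhibitor that TGF-β signalling induces, was at 47.2, 31.6 and 31.9 CPM in Wnt9bKO and 18.7, 18.3 and 15.7 CPM in Rspo2KO (log2 fold change 1.07, SE 0.17, adjusted p = 0.00139). *Nog* and *Grem1* encode secreted BMP antagonists and had log2 fold changes of 0.84 (adjusted p = 0.0131) and 1.10 (adjusted p = 0.0139), and the ligand gene *Tgfb3* had 0.61 (adjusted p = 0.0311). The calls of *Nog* and *Grem1* were lost without Rspo2KO 2 or 3 and that of *Tgfb3* without any 1 of 4 libraries, while *Smad7* kept its call, whereas 9 genes of the list were called without Wnt9bKO 2.

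In the FGF list, 3 of 20 genes were higher and 1 was lower (20% called, against 12.5% of all genes). Besides *Fgf8*, *Il17rd*, an inhibitor of FGF signalling (0.71, SE 0.13, adjusted p = 0.00386), and *Etv5*, a transcription factor gene that FGF signalling induces (0.62, adjusted p = 0.0164), were higher. *Fgfr3*, a receptor gene of the ventricular zone of the neural tube, was at 24.98, 17.5 and 26.6 CPM in Wnt9bKO and 54.7, 55.5 and 48.4 CPM in Rspo2KO (log2 fold change -1.198, SE 0.16, adjusted p = 0.000405). The *Fgfr3* and *Il17rd* calls were kept whichever library was left out, and *Etv5* lost its call in 4 of 6 such fits, among them the one without Wnt9bKO 2.

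**Figure D3:**
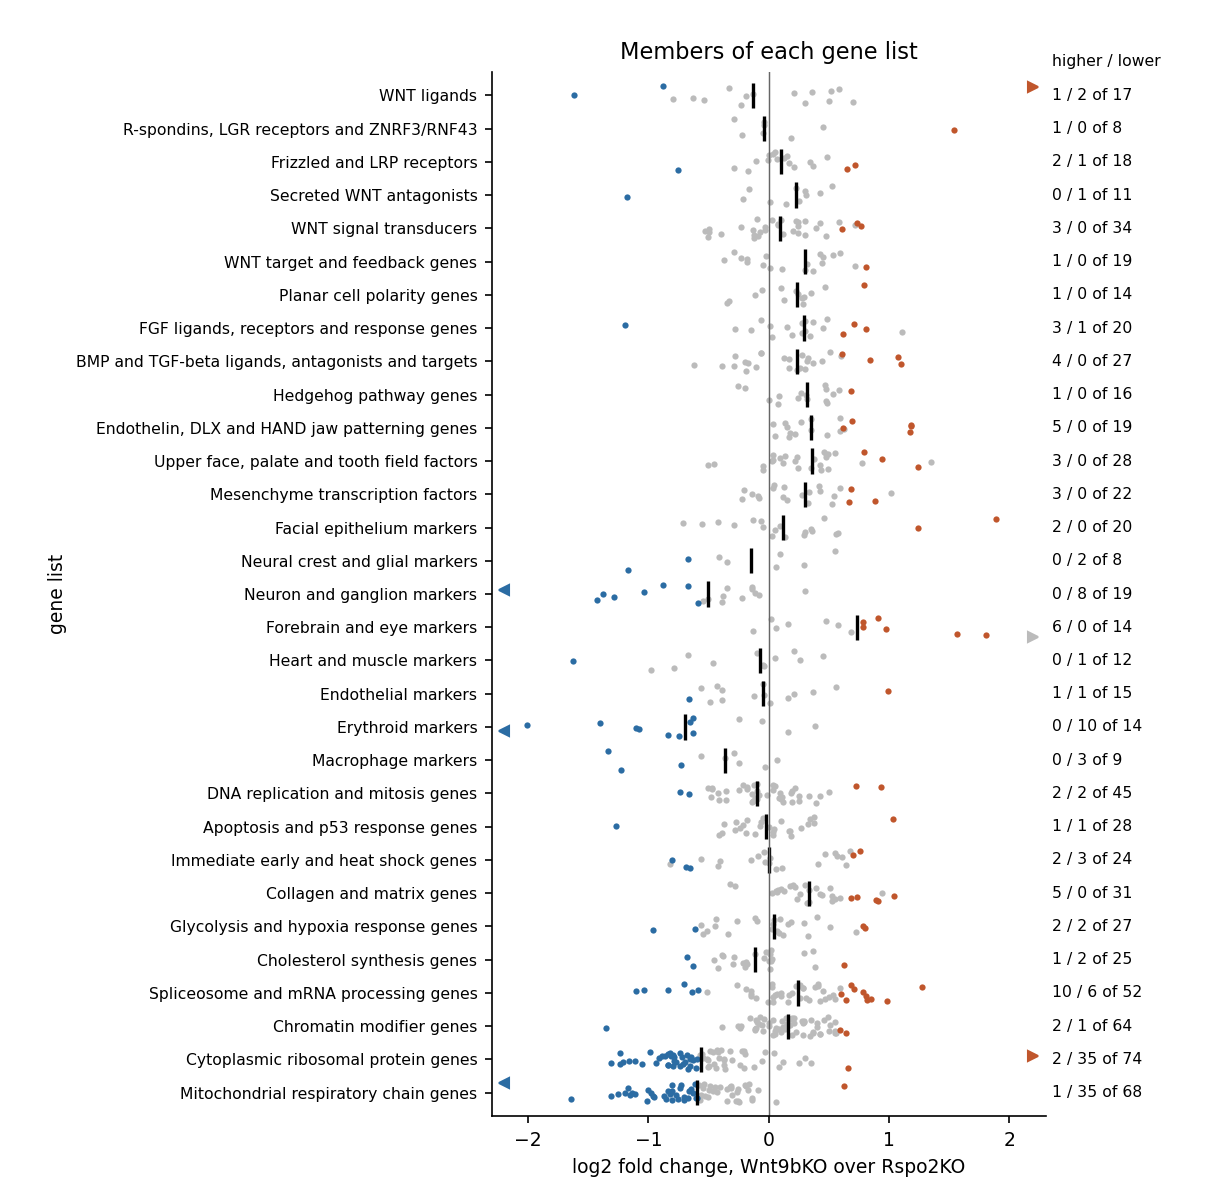
Log2 fold change of Wnt9bKO over Rspo2KO for each tested member of 31 gene lists, with orange and blue points for genes called higher and lower, grey points for the others, black bars at the medians and triangles for values beyond the axis. The counts at the right give genes called higher and lower of those tested; ribosomal protein and respiratory chain genes have 35 each called lower.

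Several of the largest differences were in genes known from the brain. *Hoxa2*, which is expressed in the hindbrain and in branchial arches behind the first, was at 6.77, 7.60 and 7.04 CPM in Rspo2KO and at 0.161, 0.359 and 0 CPM in Wnt9bKO. *Hoxb2* was at 1.58, 2.55 and 1.90 CPM against 0.214, 0.180 and 0.0602 CPM. *Hoxb1*, a marker of one hindbrain segment, had 91 counts in Rspo2KO and 2 in Wnt9bKO, a 51.9-fold ratio (95% interval 14 to 435, counting error only). Of 18 autosomal HOX genes these 3 passed the filter on low counts, which they did through Rspo2KO alone, so their values are given without a test. The other 15 were below 0.7 CPM in every library, and the 18 genes summed to between 12.3 and 14.1 CPM in Rspo2KO and between 0.48 and 1.93 CPM in Wnt9bKO. In bulk tissue, fewer cells of a type and less RNA per cell cannot be told apart.

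*Ttr*, the transthyretin gene of the choroid plexus and hindbrain roof, followed the same pattern, at 10.3, 9.43 and 17.7 CPM in Rspo2KO and 0.0536, 0.419 and 0.181 CPM in Wnt9bKO, and also passed the filter through Rspo2KO alone. *Kirrel2*, a cell adhesion gene, was at 6.24, 7.66 and 6.53 CPM against 0.697, 0.299 and 0.602 CPM. It too passed the filter through Rspo2KO alone, so both genes are given without a test.

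Further genes of the dorsal hindbrain and spinal cord, chosen after their values were seen, had the same order. *Atoh1*, the transcription factor gene of the rhombic lip, had 66 counts in Rspo2KO and 0 in Wnt9bKO, at least 25.1-fold higher against a floor of 3 counts over the group. *Olig3*, a marker of dorsal progenitors, had 101 counts against 3 (38.4-fold, 95% interval 12.8 to 189, counting error only and not the spread between samples). *Lbx1*, a marker of dorsal interneurons, was at 2.48, 1.95 and 2.15 CPM against 0.322, 0 and 0.120 CPM. *Atoh1*, *Olig3* and *Lbx1* passed the filter on low counts through Rspo2KO alone, so their values are given without a test. *Robo3*, an axon guidance receptor gene of commissural neurons, was at 23.5, 17.3 and 18.1 CPM in Rspo2KO and 4.99, 4.13 and 2.95 CPM in Wnt9bKO (log2 fold change -2.28, SE 0.21, adjusted p = 3.39e-05).

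Forebrain genes had the opposite order. Of 14 forebrain and eye markers tested, 6 were higher in Wnt9bKO and none lower (42.9% called), and 13 had a log2 fold change above 0. *Emx2*, a transcription factor gene of the dorsal telencephalon, was at 11.3, 14.3 and 13.0 CPM in Wnt9bKO and 5.57, 4.197 and 3.36 CPM in Rspo2KO (log2 fold change 1.56, SE 0.20, adjusted p = 0.000401). *Eomes*, a T-box factor gene of intermediate progenitors in the cortex, was at 4.29, 10.3 and 8.67 CPM against 1.96, 1.82 and 1.84 CPM (log2 fold change 2.04, SE 0.31, adjusted p = 0.0011). The *Emx2* call was kept whichever library was left out. *Lhx2*, a gene of the cortex and eye field, was at 32.7, 75.9 and 53.4 CPM in Wnt9bKO and 30.7, 27.4 and 24.5 CPM in Rspo2KO (log2 fold change 0.97, adjusted p = 0.0145), and *Emx1* at 0.965, 5.45 and 2.95 CPM against 0.903, 0.973 and 0.761 CPM (log2 fold change 1.81, adjusted p = 0.0288). The groups overlap for *Emx1*, whose call was lost without any 1 of 5 of the 6 libraries, Wnt9bKO 2 among them, and the *Lhx2* call was lost without Rspo2KO 2 or 3. In both, Wnt9bKO 1 lay close to Rspo2KO and Wnt9bKO 2 was the highest library. The list summed to 180.4, 331.4 and 221.6 CPM in Wnt9bKO 1, 2 and 3 and to between 152.6 and 173.9 CPM in Rspo2KO. Its count of 6 was 3 without Wnt9bKO 2, 1 without Rspo2KO 2 or 3 and 7 without Wnt9bKO 1. *Otx1* and *Dmrt3*, chosen after their values were seen, are also forebrain genes and had log2 fold changes of 1.68 (adjusted p = 0.00264) and 1.78 (adjusted p = 0.00121).

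**Figure D4:**
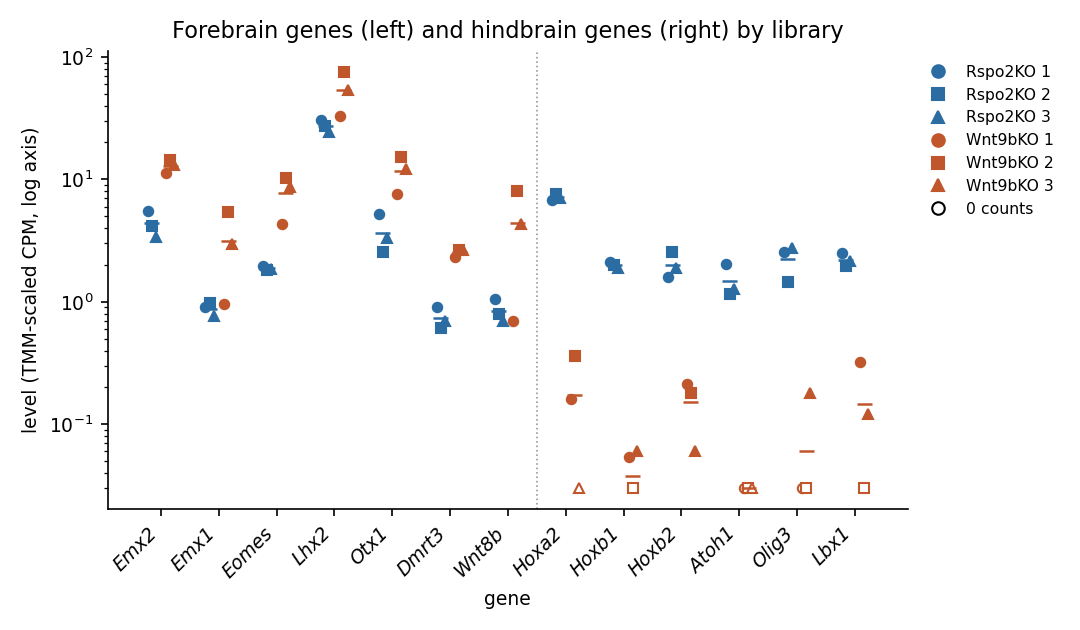
Level of 7 genes known from the forebrain (left of the dotted line) and 6 known from the hindbrain or dorsal neural tube (right) in each library, in TMM-scaled CPM on a log axis with a bar at each group's mean. Open symbols at the foot stand for libraries with 0 counts; these 6 genes lie above 1 CPM in every Rspo2KO library and below 0.4 CPM in every Wnt9bKO library.

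Neuron genes were lower in Wnt9bKO. Of 19 neuron and ganglion markers tested, 8 were lower and none higher (42.1% called), and 18 had a log2 fold change below 0, with a median of -0.51. *Tubb3*, the neuronal tubulin gene, was at 245, 170 and 218 CPM in Wnt9bKO and 395, 373 and 399 CPM in Rspo2KO (log2 fold change -0.88, SE 0.14, adjusted p = 0.00129). *Ina*, a neurofilament gene (-1.43, adjusted p = 0.000916), and *Neurod4*, a factor of neuron differentiation (-1.37, adjusted p = 0.00155), fell further. The list summed to 699.2, 435.2 and 632.8 CPM in Wnt9bKO and to 1028, 939.1 and 1028 CPM in Rspo2KO, and its count ranged from 6 (without Rspo2KO 1 or Wnt9bKO 2) to 10 (without Wnt9bKO 1). Of 8 neural crest and glial markers 2 were lower and none higher (25% called), while 4 had a log2 fold change above 0 and 4 below (median -0.14). Their sums overlap, at 273.0 to 281.6 CPM in Wnt9bKO and 277.7 to 295.8 CPM in Rspo2KO. *Ednrb*, an endothelin receptor gene of migrating crest cells, was lower at 30.7, 27.1 and 32.0 CPM against 67.5, 63.3 and 71.2 CPM (log2 fold change -1.17, SE 0.12, adjusted p = 6.9e-05). The other was *Ngfr* (-0.67, adjusted p = 0.0088), whose call was lost without Rspo2KO 3 or Wnt9bKO 2.

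Blood genes were also lower in Wnt9bKO. Of 14 erythroid markers 10 were lower and none higher (71.4% called), with a median of -0.70. *Hbb-y*, an embryonic globin gene, was at 1258, 778 and 1120 CPM in Wnt9bKO and 2441, 2647 and 3239 CPM in Rspo2KO (log2 fold change -1.40, SE 0.18, adjusted p = 0.00042). *Hba-x* (-1.08, adjusted p = 9.69e-05) and *Hbb-bh1* (-1.10, adjusted p = 0.00124), also embryonic globins, had the same order. The 14 genes and 1 below the filter summed to between 1864 and 2505 CPM in Wnt9bKO and between 4619 and 5933 CPM in Rspo2KO. Without Rspo2KO 3 the count was 4. Macrophage markers were lower for 3 of 9 genes (33.3% called), namely *Adgre1* (-1.23, adjusted p = 0.00592), *Tyrobp* (-1.34, adjusted p = 0.0121) and *Csf1r* (-0.73, adjusted p = 0.0348). Their sums were 33.5 to 46.8 CPM against 56.9 to 67.4 CPM, and without Rspo2KO 3 the count was 1. The *Csf1r* call was also lost without Rspo2KO 2, Wnt9bKO 2 or Wnt9bKO 3.

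The lists for other cell types of the explants differed less. Facial epithelium markers summed to between 423.0 and 479.9 CPM in Wnt9bKO and between 377.5 and 442.3 CPM in Rspo2KO, with 2 of 20 higher (10% called). One was *Grhl3* and the other *Spint2*, a protease inhibitor gene, at 19.7, 13.2 and 15.8 CPM against 5.64, 3.77 and 3.87 CPM (log2 fold change 1.89, SE 0.21, adjusted p = 0.000149). Mesenchyme factors summed to 1931 to 2191 CPM in Wnt9bKO and 1644 to 1878 CPM in Rspo2KO, so both tissues that define a facial process were present in all 6 libraries. Endothelial markers (13.3% called) had 1 of 15 higher (*Plvap*, 0.99, adjusted p = 0.00481) and 1 lower (*Emcn*, -0.66, adjusted p = 0.0205, lost without Rspo2KO 2, Rspo2KO 3 or Wnt9bKO 1). Their sums lay between 317.3 and 347.1 CPM in all 6 libraries. Of 12 heart and muscle markers tested 1 was lower (8.33% called), and the sums were 37.8 to 71.5 CPM against 50.01 to 58.8 CPM. The called gene was *Myl7*, an atrial myosin light chain gene. It was at 0.375, 0.599 and 0.361 CPM in Wnt9bKO and at 1.43, 1.52 and 1.204 CPM in Rspo2KO. *Myl7* passed the filter on low counts through Rspo2KO alone, so its values are given without a test and nothing is read from the share. Its call was also lost with all 11 libraries in the model. The part of forebrain, hindbrain and blood transcripts in the other differences was not tested.

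Some matrix genes were higher in Wnt9bKO. Of 31 collagen and matrix genes 5 were higher and none lower (16.1% called, against 12.5% of all genes), and 29 had a log2 fold change above 0 (median 0.33). *Col18a1*, a basement membrane collagen gene, was at 299, 315 and 283 CPM in Wnt9bKO and 178, 146 and 155 CPM in Rspo2KO (log2 fold change 0.91, SE 0.12, adjusted p = 0.000376). *Col4a1* (0.68, adjusted p = 0.00538) and *Col4a2* (0.73, adjusted p = 0.00169) encode chains of the same structure, and *Col5a2*, a fibrillar collagen gene, had the largest of these values (1.04, adjusted p = 0.0020). The count was 10 without Wnt9bKO 2 and 3 without Rspo2KO 2 or Wnt9bKO 1, which also ended the *Col4a1* call.

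Genes for ribosomes and respiration were lower in Wnt9bKO as groups. Of 74 cytoplasmic ribosomal protein genes 35 were lower and 2 higher (50% called), with a median of -0.56, and of 68 mitochondrial respiratory chain genes 35 were lower and 1 higher (52.9% called), with a median of -0.60. *Rps27a*, which encodes a small subunit protein fused to ubiquitin (-1.23, adjusted p = 0.000206), and *Rpl28*, of the large subunit (-1.05, adjusted p = 7.6e-05), were among the lower genes. In the respiratory chain, *Cyc1*, which encodes cytochrome c1 of complex III, was at 59.3, 61.7 and 69.2 CPM in Wnt9bKO and 137, 177 and 158 CPM in Rspo2KO (log2 fold change -1.31, SE 0.12, adjusted p = 4.49e-05). *Ndufs8* of complex I (-1.17, adjusted p = 0.000129) and *Atp5l* of ATP synthase (-1.64, adjusted p = 5.74e-05) were also lower. The lowest value was that of *Uqcrq*, a complex III subunit, at 7.13, 7.37 and 9.88 CPM in Wnt9bKO and 73.1, 90.4 and 98.2 CPM in Rspo2KO (log2 fold change -3.43, SE 0.17, adjusted p = 1.37e-07). Between 27 (without Rspo2KO 3) and 45 (without Rspo2KO 1) ribosomal protein genes were lower when 1 library was left out, and between 28 and 44 respiratory chain genes, with the same libraries left out.

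The median summed exon length was 1806 bases for the ribosomal protein genes and 1814 for the respiratory chain genes, against 4536 for all genes tested, and short genes were more often lower than higher in Wnt9bKO. Genes were divided by length into 5 groups of near equal number. In the shortest group (102 to 2569 bases) the median log2 fold change was -0.23, with 4.08% higher and 17.7% lower. In the longest group (7764 to 123180 bases) the median was 0.11, with 5.59% higher and 1.73% lower. After an offset for GC content and length was fitted, the medians of these groups were -0.12 and -0.01, and those of the ribosomal protein and respiratory chain lists were -0.47 and -0.53, with 30 and 31 genes lower. Genes named Hist, most of which encode replication-dependent histones, were lower in 37 of 52 cases and higher in 2.

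**Figure D5:**
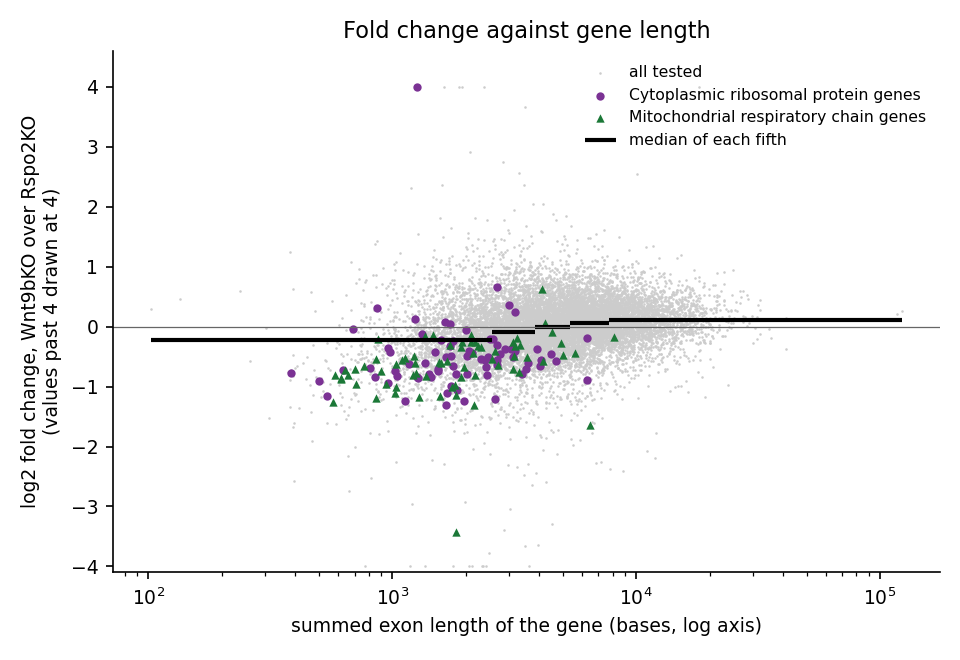
Log2 fold change of Wnt9bKO over Rspo2KO against summed exon length in bases on a log axis, for all genes tested (grey), ribosomal protein genes (purple circles) and respiratory chain genes (green triangles), with black bars at the median of each of 5 length groups. The bars climb from -0.23 in the shortest group to 0.11 in the longest, and most coloured points lie below the bar of their own length.

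Genes of RNA processing moved in both directions. Of 52 spliceosome and mRNA processing genes 10 were higher and 6 lower (30.8% called). *Srsf2*, a splicing regulator, was at 325, 365 and 343 CPM in Wnt9bKO and 141, 138 and 149 CPM in Rspo2KO (log2 fold change 1.27, SE 0.11, adjusted p = 1.97e-05). *Ddx5*, an RNA helicase gene (0.98, adjusted p = 0.000611), and *Rbm25*, a splicing factor gene (0.81, adjusted p = 0.000532), were also higher. *Snrpd2*, one of the small proteins of the snRNP core, was at 71.6, 68.8 and 98.3 CPM in Wnt9bKO against 147, 186 and 178 CPM (log2 fold change -1.10, SE 0.15, adjusted p = 0.000596). The other 5 lower genes, chosen after their values were seen, were *Snrpf*, *Snrpg*, *Snrpe* and *Snrpb*, which encode proteins of the same core or its assembly, and *U2af1*. Of 64 chromatin modifier genes 2 were higher and 1 lower (4.69% called). *Ehmt1* (0.59, adjusted p = 0.00426) and *Chd4* (0.64, adjusted p = 0.00841) were higher. *Hdac1*, a histone deacetylase gene, was lower, at 35.5, 40.6 and 43.7 CPM against 88.2, 107 and 110 CPM (log2 fold change -1.35, SE 0.13, adjusted p = 4.67e-05). The *Ehmt1* call was lost in 4 of the 6 fits without 1 library, the one without Wnt9bKO 2 among them, and with the offset for GC content and length. The count of higher chromatin genes was 12 without Rspo2KO 1 and 0 without Rspo2KO 2 or 3.

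Proliferation and death genes showed no shared direction. Of 45 replication and mitosis genes 2 were higher and 2 lower (8.89% called), with a median of -0.09. *Plk1*, a mitotic kinase gene (0.93, adjusted p = 0.00074), and *Rrm2*, a subunit of ribonucleotide reductase (0.73, adjusted p = 0.00997), were higher, and *Mcm2*, of the replicative helicase (-0.74, adjusted p = 0.0018), and *Gins2* (-0.66, adjusted p = 0.00517) were lower. The *Rrm2* call was lost without Rspo2KO 2 or 3 and that of *Gins2* without Rspo2KO 2. Of 28 apoptosis and p53 response genes 1 was higher and 1 lower (7.14% called). *Trp53*, the p53 gene itself, was at 94.1, 133 and 115 CPM in Wnt9bKO and 65.5, 52.0 and 49.9 CPM in Rspo2KO (log2 fold change 1.03, SE 0.15, adjusted p = 0.0008). *Cdkn1a*, a cell cycle inhibitor that p53 induces, was at 3.06, 2.75 and 2.59 CPM against 6.39, 7.60 and 6.34 CPM (log2 fold change -1.27, SE 0.19, adjusted p = 0.00109). The transcript of p53 was thus higher, and that of its best known target lower, in every Wnt9bKO library.

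Of 24 immediate early and heat shock genes 2 were higher and 3 lower (20.8% called, against 12.5% of all genes). The chaperone genes *Hspa8* (-0.80, adjusted p = 0.00248) and *Dnajb1* (-0.69, adjusted p = 0.00583) and the immediate early gene *Btg2* (-0.65, adjusted p = 0.00421) were lower, while *Jund* (0.70, adjusted p = 0.00558) was higher. The *Btg2* call was lost without Rspo2KO 3 and that of *Jund* without Wnt9bKO 1. Glycolysis and hypoxia genes had 2 of 27 higher and 2 lower (14.8% called). *Gpi1* (0.80, adjusted p = 0.00149) and *Hk2* (0.79, adjusted p = 0.0013), which act in the first steps of glycolysis, were higher. *Eno1* (-0.96, adjusted p = 0.00101) and *Gapdh* (-0.62, adjusted p = 0.00835), which act later, were lower. Of 25 cholesterol synthesis genes (12% called) *Fasn*, of fatty acid synthesis, was higher (0.62, adjusted p = 0.0176), and *Mvd* (-0.68, adjusted p = 0.00485) and *Dhcr7* (-0.63, adjusted p = 0.0136) were lower. The calls of *Gapdh*, *Mvd* and *Fasn* were lost with the offset for GC content and length, that of *Gapdh* also without Rspo2KO 2 or Wnt9bKO 1. Without Wnt9bKO 2 the *Fasn* and *Dhcr7* calls were lost, as they were without Rspo2KO 3.

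Several of the largest changes were in genes that have near-identical copies, where reads can be split between copies by the counting. *Eno1b* had 957 counts in Wnt9bKO and 1 in Rspo2KO, while its parent gene *Eno1* was at 284, 349 and 389 CPM in Wnt9bKO and 576, 722 and 689 CPM in Rspo2KO. *Hmga1b* had 725 counts in Wnt9bKO and 2 in Rspo2KO, and *Hmga1* was at 77.3, 112 and 105 CPM against 64.0, 69.0 and 56.7 CPM. *Eif3j2* was at 2.89, 8.26 and 5.06 CPM against 0.0752, 0.182 and 0.127 CPM, and *Eif3j1* at 28.5, 25.4 and 35.4 CPM against 39.0, 42.3 and 42.5 CPM. In each pair the copy was close to absent in Rspo2KO, and *Hmga1* rose with its copy where *Eno1* and *Eif3j1* did not. *Dynlt1b*, 1 of 4 similar genes on chromosome 17, went the other way, at 0, 0 and 1.08 CPM in Wnt9bKO and 7.07, 5.23 and 7.92 CPM in Rspo2KO, and *Hba-a2* was at 3.16, 1.68 and 12.6 CPM against 36.3, 36.2 and 42.9 CPM, while its copy *Hba-a1* was at 70.7 to 140.4 CPM against 75.2 to 99.1 CPM. *Rps16* was at 114, 77.0 and 139 CPM in Wnt9bKO and 5.72, 3.41 and 5.20 CPM in Rspo2KO (log2 fold change 4.54, SE 0.25, adjusted p = 3.82e-07), against the direction of the other ribosomal protein genes. These values are uncertain as measures of a single gene, and the strain background of the embryos, which the labels give as mixed, was not tested.

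*Hydin*, a gene for a protein of motile cilia, was at 144, 190 and 9.94 CPM in Wnt9bKO 1, 2 and 3 and at 0.903, 0.608 and 1.01 CPM in Rspo2KO. It passed the filter on low counts through Wnt9bKO alone, so its values are given without a test. The Wnt9bKO libraries differ widely from each other in this gene, and each is above all of Rspo2KO. *Taf13*, a subunit of the general transcription factor TFIID, was uniform in comparison, at 27.8, 25.3 and 26.1 CPM against 8.58, 5.84 and 6.34 CPM (log2 fold change 1.94, SE 0.16, adjusted p = 1.84e-05).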

How the data were processed

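The authors extracted total RNA with Trizol, prepared Illumina libraries, removed adapters with Cutadapt, aligned the reads against the GRCm38 genome in STAR and tallied them per Ensembl gene in HTSeq-Count. They deposited raw counts, whole numbers without normalization, 1 file per library. The strand setting and annotation release are not given in the sources used here, so reads of a gene and its antisense partner cannot be told apart. Genotype and replicate number come from the sample labels.

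Of 38561 genes in the files, 36723 matched the GENCODE GRCm38 annotation. R 4.3.3, edgeR 4.0.16 (filterByExpr, TMM, quasi-likelihood test, two-sided), limma 3.58.1 and DESeq2 1.42.0 were used, with Python 3.11.15, pandas 2.3.3 and matplotlib 3.10.9. The model was fitted to the 6 libraries and all 16370 genes that passed the filter, and p-values were adjusted over them by the Benjamini-Hochberg method. Intervals of fold changes are at 95%. Ratios and floors (3 counts) for genes with 3 counts or fewer in a group cover counting error only. No 2 libraries agreed within sampling noise (chi-square per degree of freedom 4.87 or more).

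In simulated counts with 100 genes changed 2-fold and 100 changed 3-fold, 83 and 94 were recovered with 18 false calls over 16091 genes. With a simulated GC and length bias there were 2295 false calls without and 29 with a loess offset (span 0.3) over 15950 genes. The size of that bias was set by hand and not estimated from these libraries, so these counts do not measure false calls among the called genes.

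The 32 gene lists were written by hand and chosen, like the comparison, with earlier results of these data known. Named genes are the mutated genes, genes the paper names, the 8 largest rises and 8 largest falls that were called also with the offset and without Wnt9bKO 2, had no overlap between groups, reached 5 CPM and were no Gm, Rik or Hist models, and up to 4 called genes with the smallest p per list. The 17 alternatives were other normalizations and filters, DESeq2, all 11 libraries, coding genes only, a replicate block, the offset with and without the block, glmTreat and leaving out each library. Some genes that met these rules are not reported here.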

Additional observations from a re-analysis of the deposited data

How the results depend on the processing

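Of the 714 genes higher and 992 lower in Wnt9bKO, edgeR's glmTreat against 1.5-fold left 68 and 195 (378 and 613 with p unadjusted, against 898 and 1163). Leaving out 1 library gave 393 to 1066 higher and 573 to 1150 lower; the cause was not tested beyond the smaller number of libraries. Other alternatives stayed within 1.5 times: DESeq2 gave 669 and 930, no filter 727 and 1183, all 11 libraries in the model 766 and 1066, and the GC and length offset 726 and 895. In every alternative 217 of the 1706 genes were called. The log2 fold change of *Rspo2* ranged from 0.98 to 1.93 with 1 library left out and was 1.43 without a filter on low counts, where it passed the adjusted threshold (adjusted p = 7.83e-05). With 1 library left out, the log2 fold change changed sign in *Msx1* (-0.15 to 0.68), *Lgr5* (-0.42 to 0.21), *Lrp5* (-0.016 to 0.33), *Ctnnb1* (-0.10 to 0.052) and *Wnt3* (-0.52 to 0.070), none of which was called with all 6 libraries. For the 118 named genes, 1815 of 1992 alternative values kept direction and side of the threshold, 166 lost the call, 5 gained it and 6 changed sign. Of 1088 list counts, 168 moved by more than 1.5 times. With the replicate number as a block 715 genes were higher and 993 lower. Deviations of same-numbered libraries from their group means correlated at 0.08, 0.12 and 0.07 for numbers 1, 2 and 3; each library correlated best with its own number, a hint from the data and not from the design. Depth limits genes near 3 counts, 0.161 to 0.226 CPM in these libraries.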

Other observations

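Outside autosomal protein-coding genes, small RNAs without a poly(A) tail were lower in Wnt9bKO. Shares called in the edgeR test with all genes are given here, against 12.5% of autosomal protein-coding genes. Of 32 small nuclear RNA genes tested 14 were lower and none higher (43.8% called). Of 134 small nucleolar RNA genes 37 were lower and 4 higher (30.6%). Of 10 small Cajal body RNA genes 7 were lower and none higher (70%). Pseudogenes went the other way, with 62 of 384 higher and 10 lower (18.8%). Long intergenic RNAs had 43 of 439 higher and 17 lower (13.7%), and antisense genes 46 of 567 higher and 16 lower (10.9%). The shares of these last classes were near that of coding genes, with more genes higher than lower. Of 503 X-linked protein-coding genes 24 were higher and 26 lower (9.94%). Mitochondrial transcripts took between 9.76% and 16.3% of counts in Wnt9bKO and between 11.5% and 16.5% in Rspo2KO, so the groups overlap.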
